A study of Arabidopsis thaliana with 6 samples.

Results

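Xyloglucan endotransglucosylase/hydrolase (XTH) genes of the Arabidopsis thaliana root were compared between auxin-treated and untreated seedlings. The group holds 10 genes chosen by locus, with earlier results of these data known. They are XTH4, XTH5, XTH8, XTH9, XTH12, XTH13, XTH14, XTH18, XTH19 and XTH21. All 10 were found among the 20423 genes of the deposited table. The tested roots came from Col-0 wild type seedlings 3 days after germination that were kept for 6 h in liquid medium to which IAA (indole-3-acetic acid, a natural auxin) had been added at 1 µM. The control roots came from Col-0 wild type seedlings of the same age kept for 6 h in that medium without IAA. The labels give 3 libraries per group, each from a pool of whole roots, so a change within 1 cell type is seen only as part of the whole root. The deposited table gives 1 mean of normalized reads per gene and group, and no test between groups was possible with those means.

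Xyloglucan is a glucan with xylose side chains that coats and ties together the cellulose microfibrils of the growing plant wall. XTH enzymes cut a xyloglucan chain and join the new end to another chain, or, in a few members, to water. The reaction lets the wall yield while keeping it whole, and XTH genes are known for their expression in the root elongation zone and in root hairs. Auxin is known to act on wall extension in a way that differs between shoot and root.

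The members share the catalytic site of the family but few stretches of 60 identical bases, which matters because the authors counted uniquely mapped reads only. A 9-codon motif with the catalytic glutamate pair was found in 10 of 10 coding sequences, read from the RefSeq annotation of TAIR10.1. In 9 of the 10 the 9 residues were identical, and XTH9 was the exception. The 27 bases are shown 5′ to 3′ for genes that were lower after IAA (XTH12, XTH13, XTH14, XTH18), for the close paralog XTH19, and for XTH4 and XTH9. Capitals mark the codons of both catalytic glutamates.
XTH12: gatGAGattgatttcGAGttcttgggt
XTH13: gatGAAatcgacttcGAGttcttgggt
XTH14: gatGAGattgacttcGAGtttttggga
XTH18: gatGAGattgatttcGAGttcttagga
XTH19: gatGAGattgatttcGAGtttttgggg
XTH4: gacGAGatagactttGAGttccttgga
XTH9: aacGAAttcgattttGAGttcttaggg
No 2 members had the same 27 bases, so 10 distinct sequences stand for 10 genes. The encoded proteins had 277 to 305 residues. Over 45 pairs of members, coding sequences were 53.5% to 89.4% identical, with a median of 58.3%. XTH12 and XTH13 were the closest pair at 89.4%, followed by XTH18 and XTH19 at 87.6%, and XTH14 was closest to XTH13 at 76.8%. Of all 60-base windows in the exons, none of XTH4, XTH5, XTH8, XTH9, XTH12, XTH13 and XTH14 occurred elsewhere in the genome. The share found elsewhere was 0.829% in XTH18, 0.777% in XTH19 and 6.08% in XTH21. Only exact matches were counted, and windows across exon junctions were left out. Loss or exchange of reads between close paralogs was therefore not tested.

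The reads behind each mean could be bounded from the means themselves. Every mean up to 20 normalized reads was a sum of whole multiples of 2 steps, 0.366 and 0.426 in IAA and 0.589 and 0.634 in control. This held for 12116 of 12116 IAA means and 12003 of 12003 control means, whereas of all possible values with 2 decimals up to 20, the steps reach 59.5% in IAA and 19.0% in control, and of those up to 4 they reach 15.0% in IAA and 6.75% in control. A sum of 2 steps is what an average over 2 libraries gives, although the labels name 3, and which libraries stand behind the means is not known. On these steps the IAA means rest on 2052932 to 2383788 reads and the control means on 1449010 to 1560320 reads. The 95% intervals given with levels and ratios are exact Poisson and Clopper-Pearson intervals of these reads. They cover counting error only, in reads amplified by PCR, and hold nothing of the spread between libraries. The treatment label was checked with 5 auxin-induced genes, whose log2 ratios of the IAA mean over the control mean were between 5.16 (WES1) and 6.36 (IAA5).

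Most of the 10 XTH genes were lower after IAA and none was higher past 2-fold. The largest differences were in XTH12, XTH8 and XTH14, and in XTH13 and XTH21, which were listed at 0 after IAA. XTH18 was lower by a smaller factor, while XTH4, XTH19, XTH5 and XTH9 were within 2-fold. Of the 10 genes, 6 had an average of both group means of at least 10 normalized reads, and 4 of these 6 (XTH8, XTH12, XTH14, XTH18) were lower past 2-fold. XTH8 and XTH12 reached that average only through control, with means of 5.3 and 2.57 in IAA against 27.24 and 17.95 in control. Among all 11139 genes with an average of at least 10, 11.1% were lower and 13.0% were higher past 2-fold. With no minimum, 6 of 10 XTH genes were lower and 0 higher, against 18.6% lower and 20.6% higher of 20423 genes. Among genes of like level, 12.8% were lower at an average from 10 to 20 and 10.7% from 20 to 50. At an average from 4 to 10, which holds the other 4 members, 19.0% were lower. The median log2 ratio was −1.62 over the 6 genes and also over all 10, and −0.01 over all genes tested, whose middle 50% ran from −0.50 to 0.54. No p-value stands behind these counts, and the spread between libraries could not be set against them. The members were chosen with earlier results of these data known, so the shares over all genes are not a blind comparison. The summed mean of the 10 genes was 142.0 normalized reads in IAA and 300.4 in control, which is 2.12-fold lower after IAA.

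**Figure D1:**
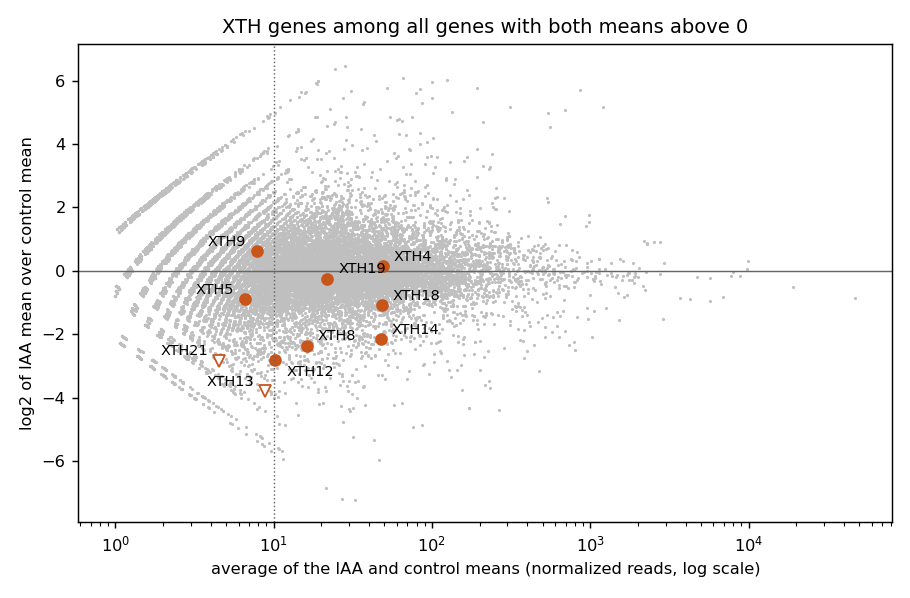
Log2 of the IAA mean over the control mean (vertical axis) against the average of both means in normalized reads (horizontal axis, log scale) for each gene with both means above 0 and an average of at least 1 (grey), with the 10 XTH genes in orange. Open triangles are upper bounds for XTH13 (−3.79) and XTH21 (−2.83), which were listed at 0 after IAA, and the dotted line is the minimum average of 10. XTH8, XTH12, XTH14 and XTH18 lie at −2.36, −2.80, −2.15 and −1.09.

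XTH12, XTH13 and XTH14 form a group of close paralogs whose enzymes are known from roots. XTH14 (AT4G25820, chromosome 4, 13130291 to 13131860), known for expression in root hairs, had a mean of 17.56 in IAA and 77.76 in control. Its ratio of 0.226 (counting interval 0.157 to 0.320) is 4.43-fold lower after IAA. On the steps, the IAA mean can only be made of 27 and 18 reads, or 19.8 and 15.3 normalized reads, and both values are far under the control mean, which rests on 123 to 127 reads. XTH12 (AT5G57530, chromosome 5, 23300321 to 23301689) had a mean of 2.57 in IAA and 17.95 in control, 6.98-fold lower after IAA (ratio 0.143, counting interval 0.0529 to 0.334). Its IAA mean can only be made of 7 reads at one step and 0 at the other, or 5.13 and 0 normalized reads. The IAA level of XTH12 thus rests on few reads, and the counting interval does not hold the spread between those values. XTH13 (AT5G57540, chromosome 5, 23302787 to 23304095) was listed at 0 in IAA and had a mean of 17.67 in control, from 28 to 30 reads. If up to 3 reads went unseen over the IAA group, which would give a mean of 1.28, XTH13 was at least 13.8-fold lower after IAA. Each of these paralogs was lower past 2-fold, XTH13 with an average under 10.

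XTH18, XTH19 and XTH21 are further XTH genes of the root. XTH18 and XTH19 belong to a group of recent duplicates with root expression, and XTH21 is known from work on primary root growth. XTH18 (AT4G30280, chromosome 4, 14825757 to 14827211) had a mean of 31.08 in IAA and 65.94 in control. This is 2.12-fold lower after IAA, with a counting interval of the ratio from 0.345 to 0.641 that reaches to both sides of 2-fold. XTH19 (AT4G30290, chromosome 4, 14828712 to 14830224) had a mean of 20.05 in IAA and 23.61 in control, a ratio of 0.849 with an interval of 0.547 to 1.33 that includes 1. The intervals of these paralogs overlap, and a difference between them in response was not tested. XTH21 (AT2G18800, chromosome 2, 8144881 to 8146477) was listed at 0 in IAA and had a mean of 9.06 in control, which can only be made of 10 and 5 reads, or 11.8 and 6.34 normalized reads. It was at least 7.10-fold lower after IAA with the same allowance of 3 unseen reads over the group.

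XTH8 had the clearest difference outside these paralogs, and XTH4, XTH5 and XTH9 had none beyond counting error. XTH8 (AT1G11545, chromosome 1, 3878495 to 3880391) had a mean of 5.3 in IAA and 27.24 in control, 5.14-fold lower after IAA (ratio 0.195, counting interval 0.0961 to 0.368). Its IAA mean can only be made of 4 and 9 reads, or 2.93 and 7.66 normalized reads, and both are under the control mean. XTH4 (AT2G06850, chromosome 2, 2763449 to 2765743), a gene known from growing and vascular tissue, had a mean of 51.24 in IAA and 46.41 in control. Its ratio was 1.10 (0.825 to 1.49). XTH5 (AT5G13870, chromosome 5, 4474922 to 4477090), the closest copy of XTH4 at 71.6% identity, had a mean of 4.63 in IAA and 8.61 in control, with a ratio of 0.538 (0.227 to 1.25). Its means can only be made of 5.86 and 3.40 normalized reads in IAA and 7.07 and 10.2 in control, values that do not overlap but rest on 12 reads in IAA and 14 in control. XTH9 (AT4G03210, chromosome 4, 1415617 to 1417444), known for expression at the shoot apex, had a mean of 9.56 in IAA and 6.16 in control, with a ratio of 1.55 (0.715 to 3.64). Its values were 8.06 and 11.1 normalized reads in IAA and 4.71 and 7.61 in control, again without overlap and again from few reads. XTH5, XTH9, XTH13 and XTH21 did not reach the minimum average of 10.

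**Figure D2:**
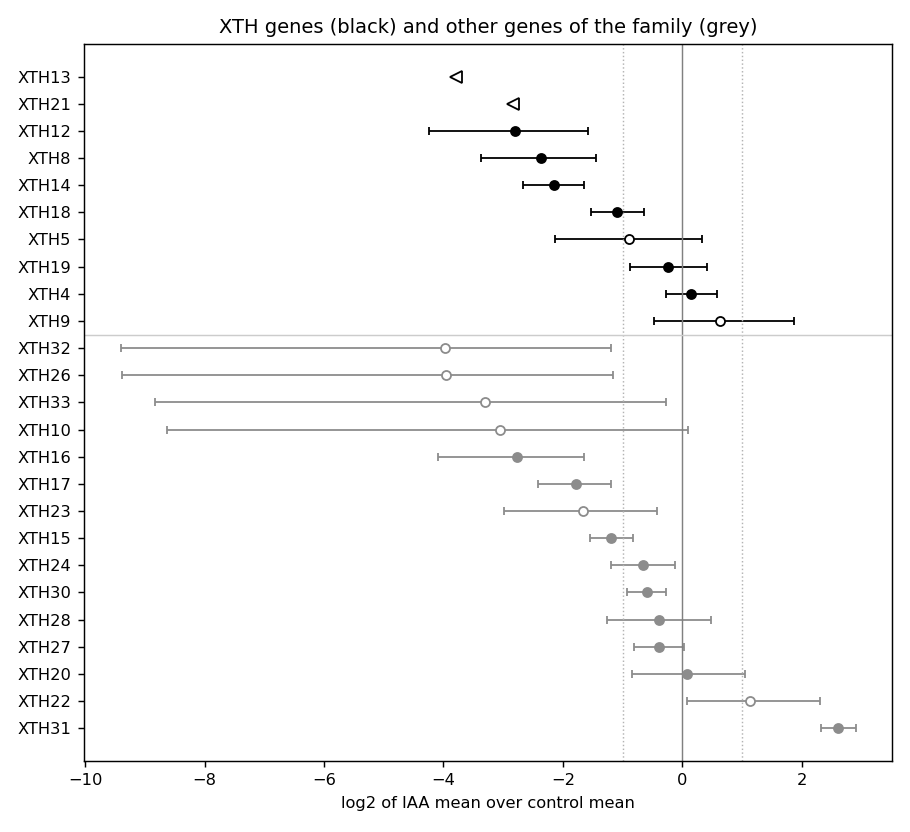
Log2 of the IAA mean over the control mean for the 10 XTH genes (black, above the line) and the other genes of the family with both means above 0 (grey). Bars are 95% counting intervals, open circles have an average mean under 10, left-pointing triangles are upper bounds for genes listed at 0 in IAA, and dotted lines mark 2-fold. XTH12, XTH8 and XTH14 lie left of −1 with their whole intervals, and XTH31 lies at 2.61.

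Per kb of exon, the order of the XTH genes differed between groups. In IAA the highest levels were those of XTH4 at 31.7, XTH18 at 24.6, and XTH14 and XTH19 at 15.0 normalized reads per kb each. In control they were XTH14 at 66.6, XTH18 at 52.2 and XTH4 at 28.7 normalized reads per kb. Most neighbours in either order had overlapping counting intervals. Of 9 pairs of neighbours, only XTH19 and XTH9 had separate intervals in IAA, and only XTH18 and XTH4 in control. As a share of the summed mean of the 10 genes, XTH4 made up 36.1% in IAA and 15.4% in control, XTH14 12.4% in IAA and 25.9% in control, and XTH18 21.9% in IAA and 22.0% in control.

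**Figure D3:**
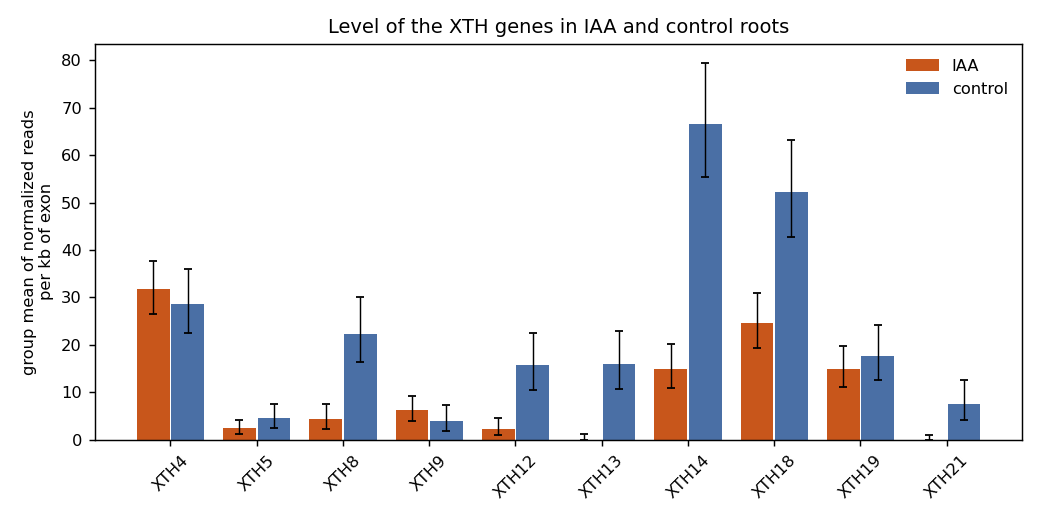
Group mean of normalized reads per kb of exon for each XTH gene in IAA (orange, left bar) and control (blue, right bar), with 95% Poisson intervals of the reads. The intervals of XTH14 are 11.0 to 20.1 in IAA and 55.4 to 79.5 in control, and those of XTH4 are 26.5 to 37.7 in IAA and 22.6 to 36.0 in control. For means of 0 the bar ends at the level of 3 reads.

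XTH12, XTH13, XTH14, XTH18 and XTH19 lie beside other genes of the family. In the chromosome 5 cluster, XTH12 and XTH13 were lower after IAA, while XTH22, with 10 control reads, had a ratio above 1. On chromosome 5, XTH12, XTH13, XTH25 and XTH22 follow each other on the minus strand. There are 1097 bases with 1 short gene between XTH12 and XTH13, 686 bases between XTH13 and XTH25 and 565 bases between XTH25 and XTH22. XTH22 (TCH4), known as a touch-induced gene, had a mean of 13.36 in IAA and 6.12 in control, a ratio of 2.18 (counting interval 1.06 to 4.94). Its average is below the minimum of 10. XTH25 had a mean of 0.43 in IAA and was listed at 0 in control, so both were under the level of 3 reads. On chromosome 4, XTH23 lies 363 bases from XTH14 on the plus strand and had a mean of 3.48 in IAA and 10.97 in control. This is 3.15-fold lower after IAA (ratio 0.317, counting interval 0.126 to 0.744), with an average also below the minimum. The other cluster of chromosome 4 holds XTH24, XTH18 and XTH19 on the minus strand. XTH24 (MERI5B) had a mean of 25.96 in IAA and 41.01 in control, with a ratio of 0.633 (0.439 to 0.912). Further paralogs of XTH18 and XTH19, outside the clusters, are XTH17 and XTH20. XTH17 had a mean of 14.08 in IAA and 48.76 in control, 3.46-fold lower, and XTH20 had 10.9 in IAA and 10.33 in control.

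**Figure D4:**
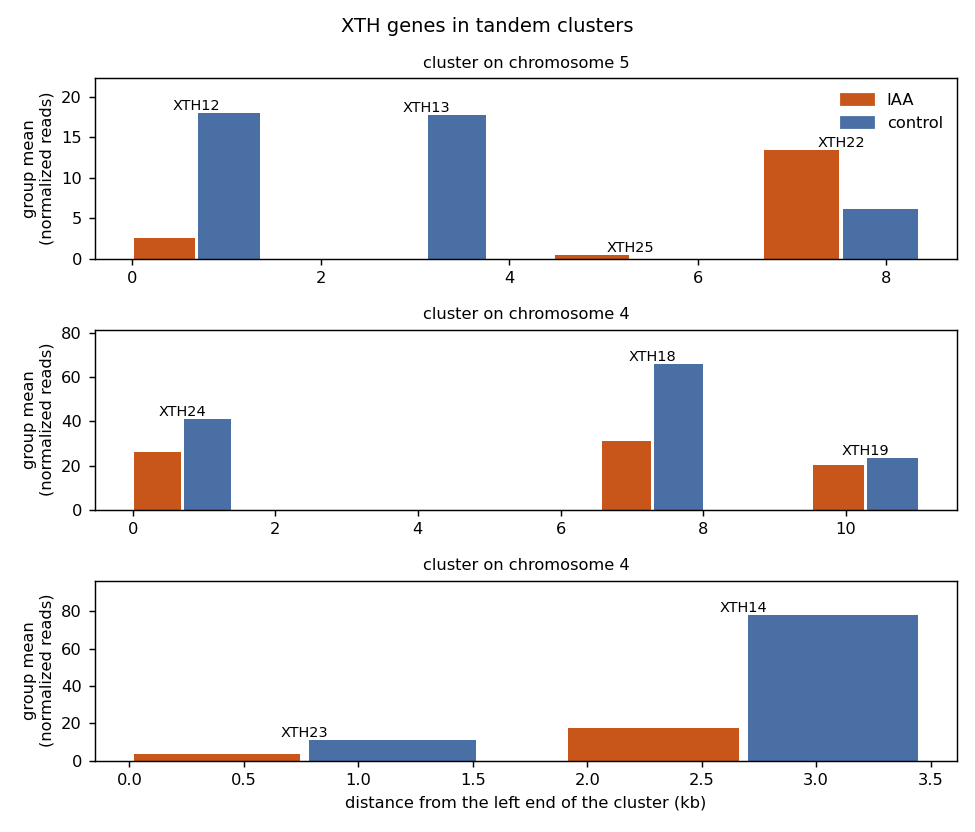
Group means of normalized reads in IAA (orange, left) and control (blue, right) for XTH genes that neighbour each other, placed by distance in kb from the left end of each cluster, with each pair of bars as wide as its gene. In the cluster of chromosome 5, XTH12 and XTH13 were lower after IAA (2.57 and 0, against 17.95 and 17.67 in control), while XTH22 was at 13.36 in IAA and 6.12 in control. XTH13, XTH22 and XTH25 have an average under 10.

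Among the other genes of the family, 1 was higher and 3 were lower past 2-fold. Of 23 such loci, 17 were in the table and 9 reached the minimum average. Of all genes tested, 13.0% were higher and 11.1% lower past 2-fold. The gene that was higher is XTH31 (AT3G44990), known for an enzyme that hydrolyses xyloglucan, with a mean of 434.71 in IAA and 71.42 in control. Its ratio was 6.09 (5.01 to 7.46). XTH15, XTH16 and XTH17 were lower past 2-fold. XTH15 had a mean of 47.24 in IAA and 107.58 in control, and XTH16 had 3.17 in IAA and 21.66 in control. XTH26, a root hair gene singled out after its values were seen, had a mean of 0.43 in IAA and 6.66 in control. Its average is below the minimum of 10, and its IAA mean rests on 1 read. XTH10, XTH32 and XTH33, also under the minimum, had 0.37, 0.43 and 0.37 in IAA and 3.08, 6.75 and 3.67 in control. With no minimum, 9 of the 17 genes were lower and 3 higher past 2-fold, against 18.6% and 20.6% of 20423 genes. Over the 27 family genes in the table, the summed mean was 817.3 in IAA and 810.7 in control. XTH31 made up 53.2% of this sum in IAA and 8.81% in control, and without it the sum was 382.6 in IAA and 739.3 in control.

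Of 15 genes of xyloglucan synthesis, 11 reached the minimum average, of which 0 were higher and 2 lower past 2-fold, against 13.0% higher and 11.1% lower of all genes tested. Their median log2 ratio was −0.19. CSLC12, a synthase of the glucan backbone, had a mean of 4.75 in IAA and 20.17 in control, and AXY4, which acetylates xyloglucan, had 6.28 in IAA and 22.84 in control. XXT5, a xylosyltransferase, had 103.03 in IAA and 105.36 in control. XUT1, a root hair galacturonosyltransferase singled out after its values were seen, was listed at 0 in IAA and had a mean of 12.69 in control. The average of XUT1 is below the minimum of 10. Of 3 genes that trim xyloglucan in the wall, BGAL10, a β-galactosidase, was higher at 62.34 in IAA and 20.39 in control, a ratio of 3.06, while XYL1, an α-xylosidase, had 129.41 in IAA and 141.3 in control.

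Markers of other cell types moved between the groups as well. All 7 root hair markers reached the minimum average and were lower past 2-fold, against 11.1% lower of all genes tested. EXPA7, EXPA18, COBL9, RHD2 and MRH1 had IAA means under 10 and reached the minimum only through control. The summed mean of all 7 was 51.9 in IAA and 336.0 in control, which is 6.47-fold lower. Of 4 endodermis markers that reached the minimum, 3 were lower. The sum over all 5 was 66.2 in IAA and 150.5 in control, which is 2.27-fold lower. All 4 shoot and photosynthesis markers were detected, with a sum of 11.7 in IAA and 102.1 in control, which is 8.73-fold lower. Of the 3 that reached the minimum, 3 were lower past 2-fold, and each reached it only through control. The summed XTH mean was 2.12-fold lower, with XTH4, which was within 2-fold, making up 36.1% of it in IAA. A difference between these sums was not tested. The 4 root cap markers, of which 0 reached the minimum average, had a sum of 18.7 in IAA and 5.0 in control. SMB made up most of it in IAA (14.75, against 2.45 in control), BRN2 had 1.1 in IAA and 1.27 in control, FEZ was at 0 in IAA and BRN1 at 0 in control. Of 3 seed storage markers, 0 had a value in the table used here. The part of these cell types in the XTH values was not tested. In whole roots, fewer cells of a type and less RNA per cell cannot be told apart.

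Windows from 250 bases before to 50 bases after the annotated gene start were searched on both strands for TGTCTC and TGTCGG, the core elements bound by auxin response factors, and for CACGTG, the G-box. TGTCTC was found in 1 of 10 members, near its share of 14.2% of 27443 windows of all protein-coding genes. TGTCGG and CACGTG were found in 0 of 10 members and in 5.12% and 7.68% of all windows. The match is in XTH21, starts at base 13 of the gene and is shown with the element in capitals, as read on the plus strand of TAIR10.1 chromosome 2 (8144883 to 8144908).
XTH21: gccttctaaaTGTCTCaaacccaatt
A match is a description of the sequence, not a bound site.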

How the data were processed

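Roots of 2 groups were profiled, IAA and control. Per the paper's methods, the authors mapped SOLiD reads to TAIR10 with SHRiMP, counted uniquely mapped reads of rRNA-depleted total RNA with htseq-count, and compared groups with DESeq. The deposited signal is the mean read count of a group, divided by size factors by the authors before deposit. The other 4 columns hold the authors' fold changes, log2 folds, p-values and adjusted p-values and were not used. The table gives no values per library. Those printed for a few genes were inferred from the steps in the means and cannot be tied to labelled libraries, so no test, error between libraries or left-out library is given.

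Log2 ratios of the IAA mean over the control mean were computed without a pseudocount, for genes with an average mean of at least 10. A ratio past 2-fold was counted. Steps in the means were found from values up to 20 with a tolerance of 0.005, and read numbers, 95% intervals and a floor of 3 reads follow from them. Gene models, exon lengths and sequences came from RefSeq TAIR10.1, and 20192 of 20423 IDs were paired. It shares locus IDs with TAIR10, and coordinates are those of TAIR10.1. Members and lists were chosen with earlier results of these data known. Named genes are the members, listed genes past 2-fold or with an average of at least 100, tandem neighbours, XTH17 and XTH20 as further paralogs of XTH18 and XTH19, and the outermost expansins. Steps and ratios were checked on simulated data. Alternatives were other scalings, pseudocounts, minimum averages and folds. The tools were Biopython 1.88, matplotlib 3.10.9, scipy 1.17.1, pandas 2.3.3 and numpy 2.4.6 under Python 3.11.15.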

Additional observations from a re-analysis of the deposited data

How the results depend on the processing

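The count of XTH genes higher past 2-fold was 0 under each of the alternatives that could be run, and the count lower was between 3 and 6, against 4 as reported. It was 3 with 5 added to each mean, where XTH18 had a log2 ratio of −0.98, and with a 3-fold threshold, and 6 with no minimum average. With a minimum of 50, no member was left and no value could be given. Of 40 log2 ratios of 8 single genes under 5 alternatives, 38 moved by less than 0.58, 0 reversed direction, and those of XTH8 and XTH12 moved to −1.65 and −1.60 with 5 added. Dividing each mean by its group's sum moved the median log2 ratio of all genes to 0.06. For other XTH family genes, the count higher was 3 with no minimum against 1 as reported, and the count lower was 9 with no minimum, 1 with a minimum of 50 and 5 at 1.5-fold, against 3 as reported. For xyloglucan synthesis and trimming genes, the count higher was 2 with no minimum and 0 with a minimum of 50, against 1, and the count lower was 4 with no minimum and 0 with a minimum of 50, against 2. Different numbers of genes tested go with the changes of the minimum. Over all genes, 1231 of 11139 were lower and 1452 higher as reported, and 3792 and 4197 of 20423 with no minimum. A minimum of 50 gave 316 lower and 382 higher of 3319. Of 11139 genes, 2439 were lower and 2632 higher at 1.5-fold, 574 and 652 at 3-fold, and 898 and 1087 with 5 added. No paired analysis was possible because the deposited means hold 1 value per group. For the same reason no library could be left out. The reads behind each gene limit what can be seen: 4 of 10 XTH genes had an average under 10.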

Other observations

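Alpha-expansins, which loosen walls without cutting the chains, had members in both directions. Of 25 loci, 15 were in the table and 8 reached the minimum average. Of these 8, 3 were higher and 2 lower past 2-fold, against 13.0% higher and 11.1% lower of all genes tested. EXPA1 had a mean of 144.94 in IAA and 4.98 in control, a ratio of 29.1 (counting interval 14.6 to 68.0), and EXPA4 had 401.86 in IAA and 15.36 in control, a ratio of 26.2 (17.6 to 40.6). The root hair expansins EXPA18 and EXPA7 were lower, with means of 1.89 and 7.86 in IAA, against 21.44 and 38.47 in control. The summed mean of the 15 genes was 733.2 in IAA and 222.8 in control. These values are descriptions of group means, with no test between the families.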
